A study of Saccharomyces cerevisiae with 15 samples.

Results

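Glutaredoxins and glutathione transferases are the enzymes that couple glutathione, the main low-molecular-weight thiol of the yeast cell, to other molecules. Their transcripts were followed in the wild type of Saccharomyces cerevisiae, budding yeast, during exposure to 1.0 mM arsenite, As(III), the trivalent oxyanion of arsenic and a poison of thiol enzymes. The members were the genes whose symbol in the platform annotation was that of a glutaredoxin, GRX1 (YCL035C), GRX2 (YDR513W), GRX3 (YDR098C), GRX4 (YER174C) or GRX5 (YPL059W), or that of a glutathione transferase, GTT1 (YIR038C), GTT2 (YLL060C), GTO1 (YGR154C) or GTO3 (YMR251W). All 9 were on the array, each with 2 spots, so that they took up 18 of 13056 spots and 9 of 5539 named genes. No filter on low values was used, so every member was measured on every array.

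Glutaredoxins are small thioredoxin-like proteins that use reduced glutathione to open disulfides, including the mixed disulfides that form between proteins and glutathione under oxidative stress. In yeast, GRX1 and GRX2 encode dithiol enzymes, GRX3 and GRX4 encode monothiol proteins that carry an iron-sulfur cluster and hold the iron regulator Aft1 in check, and GRX5 encodes a mitochondrial monothiol protein that passes iron-sulfur clusters to their targets. Glutathione transferases attach glutathione to electrophiles or reduce substrates with it. GTT1 and GTT2 encode the classical transferases of yeast, and GTO1 and GTO3 encode omega-class enzymes, which act much like glutaredoxins. Arsenite binds thiols, and its glutathione conjugate is carried into the vacuole by the transporter Ycf1.

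The series held 15 two-colour spotted arrays. Each carried total RNA of treated wild-type cells in 1 dye and total RNA of untreated wild-type cells in the other, after 15 min (3 arrays), 30 min (3 arrays), 1 h (6 arrays) or 18 h (3 arrays). Cy5 carried the treated RNA on 12 arrays, and Cy3 carried it on the 1 h arrays numbered 1, 3 and 6. The strain beyond wild type, the medium and the time at which untreated cells were harvested were not given in the sources used here. Whether replicates were separate cultures is not said in the labels, and p-values below reflect the scatter among these arrays, which may be technical. Values are given as log2 ratios, treated over untreated (a direction that is likely rather than stated), after the median gene of the array had been set to 0. A positive value therefore means a transcript that stood higher than the median gene, and a change common to most transcripts would be hidden. Because RNA came from whole cultures, more transcript per cell and more cells with the transcript cannot be told apart.

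Arrays differed in how well they matched. Across genes, which are no replicates, pairs of arrays had Pearson r of 0.722 to 0.894 at 1 h, 0.447 to 0.735 at 18 h, 0.406 to 0.927 at 30 min and -0.06 to 0.23 at 15 min. The deposited values of 10 arrays were log2 ratios of whole numbers, and those of the 3 arrays with treated RNA in Cy3 had fewer digits. The 15 min and 30 min arrays numbered 1 were of neither kind, and their making is unknown. Duplicate spots of the members had a median gap of 0.06 over all arrays and a largest gap of 0.95, the latter for GRX5 on 15 min replicate 1. Over all genes, duplicate spots correlated at 0.65 on that array, 0.84 on 30 min replicate 1 and 0.88 on 18 h replicate 3. On the other arrays this r was 0.93 to 0.99, so member values of 15 min replicate 1 are the least precise. Spotted probes can bind transcripts of related genes, so values of GRX1 and GRX2, of GRX3 and GRX4 and of the GTO genes may each hold some signal of the relative. Without scanner signals it is unknown how far spots stood above background, and precision is limited by the number of arrays.

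The raw ratios show what centring does. On 1 h replicate 5 the first GRX2 spot was deposited as the log2 of 5611 over 2102 (treated over untreated, in lowest terms), which is 1.42, and became 2.11 once the array's median gene of -0.69 had been subtracted. On the same array the first GTO1 spot was 1099 over 278, the first GRX3 spot 1556 over 3461 and the first GRX4 spot 442 over 1353. On 1 h replicate 2 the first GTO1 spot was 499 over 496, a deposited log2 ratio of 0.01, which became 1.23 because the median gene of that array stood at -1.22. The first GRX5 spot of 1 h replicate 4 was 709 over 1097, or -0.63 as deposited and 0.72 after centring.

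After 1 h the members split into 3 sets. GTO1, GRX2, GTT1, GRX1 and GRX5 rose, GRX4 fell, and GRX3, GTT2 and GTO3 did not pass the test. Over all 5539 genes at 1 h, 17.1% were called higher and 22.6% lower, against 5 and 1 of the 9 members. A gene was called when its Benjamini-Hochberg adjusted p was under 0.05 in limma. The median of the members was 1.04, and the median of all genes in the same fit was 0.02. In the order of all genes from the highest ratio down, GTO1 stood at place 82, GRX2 at 92, GTT1 at 190, GRX1 at 343 and GRX5 at 362. The members had been picked by name with earlier results of these data known, so these counts describe them and nothing more. In the deposited values without centring, where the median gene stood below 0 at 1 h, GTO1 and GRX2 kept their calls and GTT1, GRX1, GRX5 and GRX4 lost theirs.

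At the other times fewer members passed, but these times had 3 arrays each against 6 at 1 h. Their standard errors were larger (for GRX2, 0.33 at 15 min, 30 min and 18 h and 0.19 at 1 h). The counts are therefore no measure of a time course, and no difference between neighbouring times passed for any member. At 15 min no member was called (limma adjusted p from 0.517 to 0.980), none had an unadjusted p under 0.05, and 0.668% of all genes were called higher and 0.0181% lower. At 30 min GRX2 alone was called higher and no member lower, against 3.27% and 4.48% of all genes. By 18 h GTT1, GRX2 and GTO1 were called higher and no member lower, against 5.33% and 3.16%. Because all arrays at 15 min, 30 min and 18 h had treated RNA in Cy5, the fit subtracted from each gene a dye effect estimated at 1 h, and 10 of these 27 member values lay outside the range of their 3 arrays. The values without that subtraction are the means of the arrays and are given where the difference matters.

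**Figure D1:**
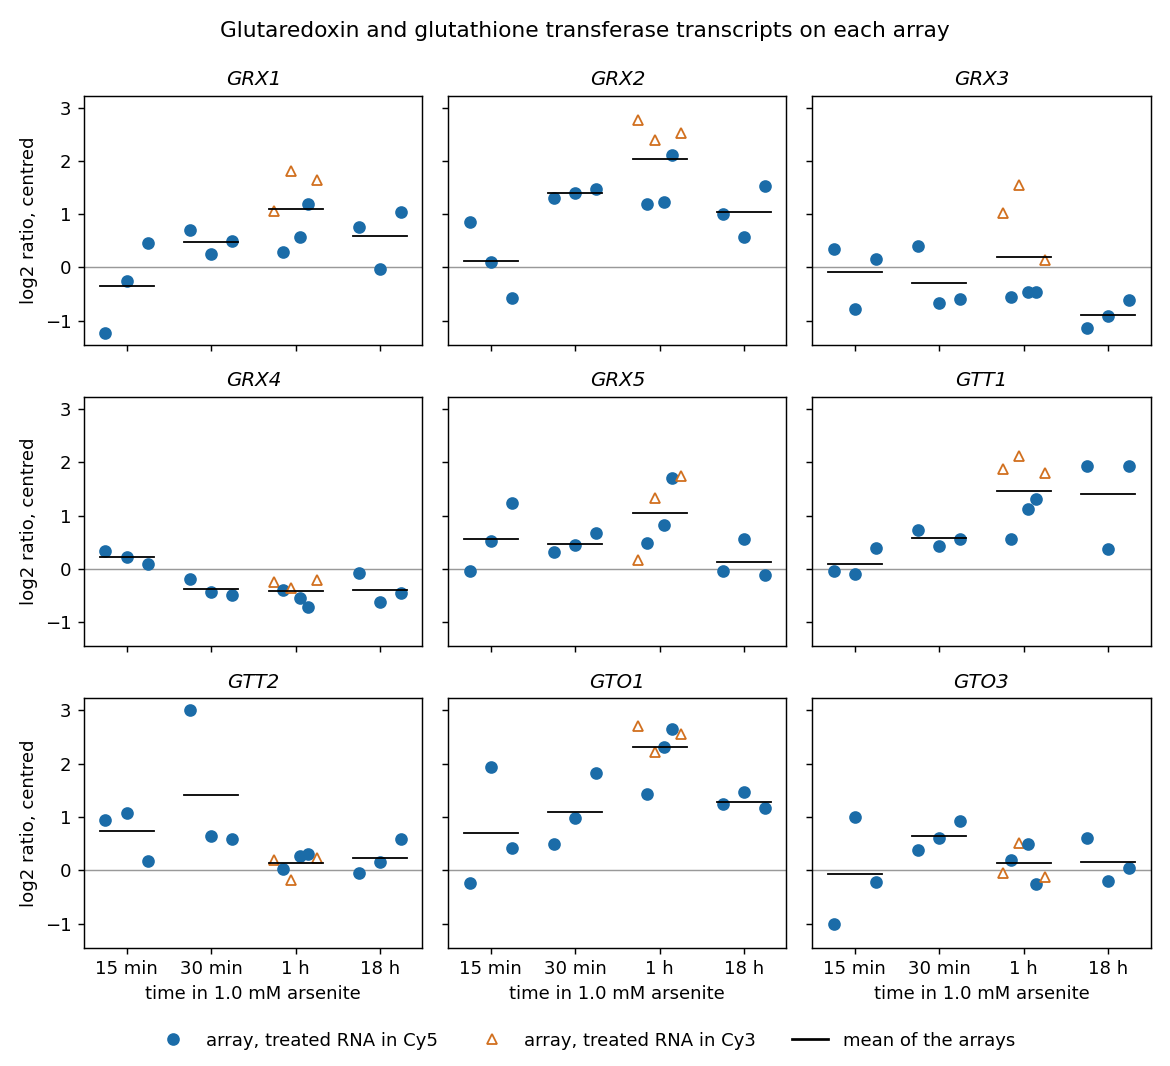
Centred log2 ratios (treated over untreated, y axis) of the 9 members on each of the 15 arrays, by time in 1.0 mM arsenite (x axis); filled circles are arrays with treated RNA in Cy5, open triangles arrays with treated RNA in Cy3, and bars the mean of the arrays. All 6 arrays at 1 h lie above 0 for GRX1, GRX2, GRX5, GTT1 and GTO1 and all 6 below 0 for GRX4, while the single GTT2 point at 3.01 is 30 min replicate 1.

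GRX2, which encodes the more active of the dithiol glutaredoxins, was the member called at the most times. On the 15 min arrays it stood at 0.86, 0.10 and -0.57. The 30 min arrays gave 1.31, 1.40 and 1.47. These lay above every 15 min array and close together, with the narrowest range of any member at that time. How many of all genes were likewise apart between 15 min and 30 min was not counted. At 1 h the lowest, median and highest arrays were 1.19, 2.25 and 2.77. All 6 lay above 0, and the 3 with treated RNA in Cy3 (2.40 to 2.77) lay above the 3 with treated RNA in Cy5 (1.19 to 2.11). The fit gave 2.03 ± 0.19 (limma standard error, adjusted p = 5.7e-07) at 1 h, a 4.09-fold ratio. At 30 min it gave 1.92 ± 0.33 (adjusted p = 0.0053), with a mean of 1.39 over the arrays themselves, a call lost without centring (adjusted p = 0.114) and with the 30 min arrays fitted alone (adjusted p = 0.064). The 18 h arrays stood at 1.00, 0.57 and 1.54, all above 0 but below the 1 h median over both dyes. All 18 h arrays had treated RNA in Cy5, and the 1 h arrays of that kind were 1.19, 1.22 and 2.11, so 18 h replicate 3 exceeded some of them. The fitted difference from 1 h to 18 h did not pass (limma adjusted p = 0.686). The fitted value at 18 h was 1.56 ± 0.33 (adjusted p = 0.0091), and the mean of the 18 h arrays was 1.03. The 18 h call was lost without 18 h replicate 3 (1.31, limma adjusted p = 0.057), with arrays scaled to equal spread (adjusted p = 0.099) and with the 18 h arrays fitted alone (adjusted p = 0.055).

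GRX1, the other dithiol glutaredoxin, moved less. It stood at -1.24, -0.25 and 0.46 on the 15 min arrays, on both sides of 0. On the 30 min arrays it was 0.71, 0.25 and 0.49. At 1 h it ran from 0.28 through a median of 1.12 to 1.80, above 0 on all 6 arrays. The fitted value was 1.09 ± 0.21 (limma adjusted p = 6.2e-04), or 2.13-fold. Over the 3 arrays with treated RNA in Cy5 alone the mean was 0.68 and the call was lost (adjusted p = 0.140). At 18 h the arrays gave 0.76, -0.03 and 1.03, so that replicate 2 stood at the median gene and the other two above it. The 18 h fit of 1.00 ± 0.36 did not pass (adjusted p = 0.110).

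The monothiol pair GRX3 and GRX4, whose products sense iron in the cytosol and nucleus, showed no rise that passed the test at any time. GRX4 stood at 0.33, 0.22 and 0.10 at 15 min. It then stood at -0.19, -0.44 and -0.49 at 30 min, and from -0.72 through -0.38 to -0.22 at 1 h. All 3 of the 15 min arrays lay above 0 and all 9 of the 30 min and 1 h arrays below it. The share of all genes with such a split between times was not computed. At 1 h GRX4 was called lower, with -0.42 ± 0.13 (limma adjusted p = 0.016), the smallest change among the 6 called members. That call was lost without 1 h replicate 3 (-0.39, adjusted p = 0.051) and without 1 h replicate 5 (-0.38, adjusted p = 0.067). GRX4 was also low in an index of spot brightness, at the 21.8th percentile of all genes. That index came from the size of the whole numbers behind the ratios on 10 arrays. These numbers were in lowest terms, so a common factor was lost and the index is only a rough guide to signal. Its 18 h arrays were again all below 0, at -0.08, -0.63 and -0.46, and the fit of -0.25 ± 0.22 did not pass (adjusted p = 0.571).

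GRX3 split by dye more than any other member. The 1 h arrays with treated RNA in Cy3 gave 1.02, 1.54 and 0.14, and those with treated RNA in Cy5 gave -0.56, -0.46 and -0.47. Every array of the first kind lay above 0 and every array of the second below it, and the fitted mean of 0.20 ± 0.20 did not pass (limma adjusted p = 0.459). A gap of this kind, with all Cy3 arrays above all Cy5 arrays, was also seen for GRX2, GRX4 and GTT1, thus in 4 of 9 members, against 10.2% of all genes. The gene-specific dye effect was -0.70 for GRX3, its adjusted p was 0.928, and it was called in 0 of 5539 genes (limma). The 18 h arrays of GRX3, all with treated RNA in Cy5, stood at -1.14, -0.91 and -0.61, all below the median gene. After subtraction of the dye effect the 18 h value was -0.19 ± 0.35 (adjusted p = 0.813), and without it -0.89 (adjusted p = 0.111). The 3 GRX3 values at 15 min, 30 min and 18 h were the only ones among 27 in which adding the dye term changed the fold over 1.5 times. With each array's trend in brightness removed GRX3 was called higher at 1 h (0.51, adjusted p = 0.017). GRX3 stood high in the brightness index described above, at the 84th percentile, as did GRX1 (88) and GRX2 (86.7).

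GRX5, the mitochondrial glutaredoxin of iron-sulfur assembly, had a wide spread. The 15 min arrays gave -0.05, 0.52 and 1.23, and the 30 min arrays 0.32, 0.44 and 0.67. At 1 h the lowest, median and highest arrays were 0.17, 1.08 and 1.74, all above 0. The fitted value of 1.04 ± 0.22 (limma adjusted p = 0.0013) corresponded to 2.06-fold. The dyes gave nearly the same mean, 1.00 with treated RNA in Cy5 and 1.08 in Cy3. At 18 h the arrays stood at -0.05, 0.56 and -0.11, around the median gene. The fit of 0.17 ± 0.38 did not pass there (adjusted p = 0.852).

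Among the transferases, GTT1, whose product is bound to the endoplasmic reticulum, had its largest values at 1 h and 18 h. The 15 min arrays gave -0.04, -0.11 and 0.40 and the 30 min arrays 0.72, 0.42 and 0.57. At 1 h the range was 0.56 to 2.13 with a median of 1.56, above 0 on all 6 arrays. The fit at 1 h was 1.46 ± 0.19 (limma adjusted p = 1.6e-05), or 2.76-fold. At 18 h replicates 1 and 3 stood at 1.92 and 1.93 and replicate 2 at 0.38, so that 1 array lay far below the pair. The fit of 1.88 ± 0.33 (adjusted p = 0.0030) put GTT1 first among the members at that time, and the mean of the arrays was 1.41. At 30 min the fitted 1.04 ± 0.33 did not pass (adjusted p = 0.065) and lay above all 3 arrays. The mean of those arrays was 0.57, with a limma adjusted p of 0.190 without the dye term.

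GTT2, the second classical transferase, was near the median gene at 1 h and 18 h. Its 6 arrays at 1 h ran from -0.18 through 0.21 to 0.30, the narrowest range of any member at that time. The fit was 0.14 ± 0.25 (limma adjusted p = 0.688), with a 95% interval from -0.40 to 0.67. Earlier arrays stood higher, at 0.93, 1.07 and 0.18 at 15 min and at 3.01, 0.65 and 0.58 at 30 min. The value of 3.01 came from 30 min replicate 1, one of the arrays of unknown making, where both spots were high (2.73 and 3.30). The 30 min fit of 1.35 ± 0.44 (adjusted p = 0.068) dropped to 0.55 without that array. At 18 h the arrays gave -0.05, 0.15 and 0.58.

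GTO1, which encodes a peroxisomal omega-class transferase, had the highest ratio of the members at 1 h. Arrays at 15 min were scattered at -0.24, 1.94 and 0.41. At 30 min they stood at 0.49, 0.99 and 1.82. The 1 h arrays ran from 1.43 through 2.43 to 2.71, and the lowest of them lay above every 1 h array of GTT2, GTO3 and GRX4. The fit was 2.31 ± 0.24 (limma adjusted p = 2.2e-06), a 4.97-fold ratio. At 18 h the arrays, all with treated RNA in Cy5, were 1.24, 1.46 and 1.17, all below the 1 h median and close together. The highest of them lay just above the lowest 1 h array, which also had treated RNA in Cy5. The fitted difference from 1 h to 18 h did not pass (limma adjusted p = 0.506). The fitted value at 18 h, 1.47 ± 0.42, passed narrowly (adjusted p = 0.043). That call was lost in 10 of the 15 fits that left out 1 array, with a largest adjusted p of 0.140, while the value stayed between 1.30 and 1.60.

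GTO3, the cytosolic omega-class relative, gave no call at any time. Its arrays stood at -1.01, 1.01 and -0.22 at 15 min, and at 0.38, 0.60 and 0.93 at 30 min. At 1 h they ran from -0.25 through 0.07 to 0.51, with 3 of 6 above 0. The fit there was 0.13 ± 0.22 (limma adjusted p = 0.662), with a 95% interval from -0.33 to 0.59. The 18 h arrays were 0.60, -0.21 and 0.05. The 15 min arrays of GTO3 thus covered a wider range than all 12 later arrays together.

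**Figure D2:**
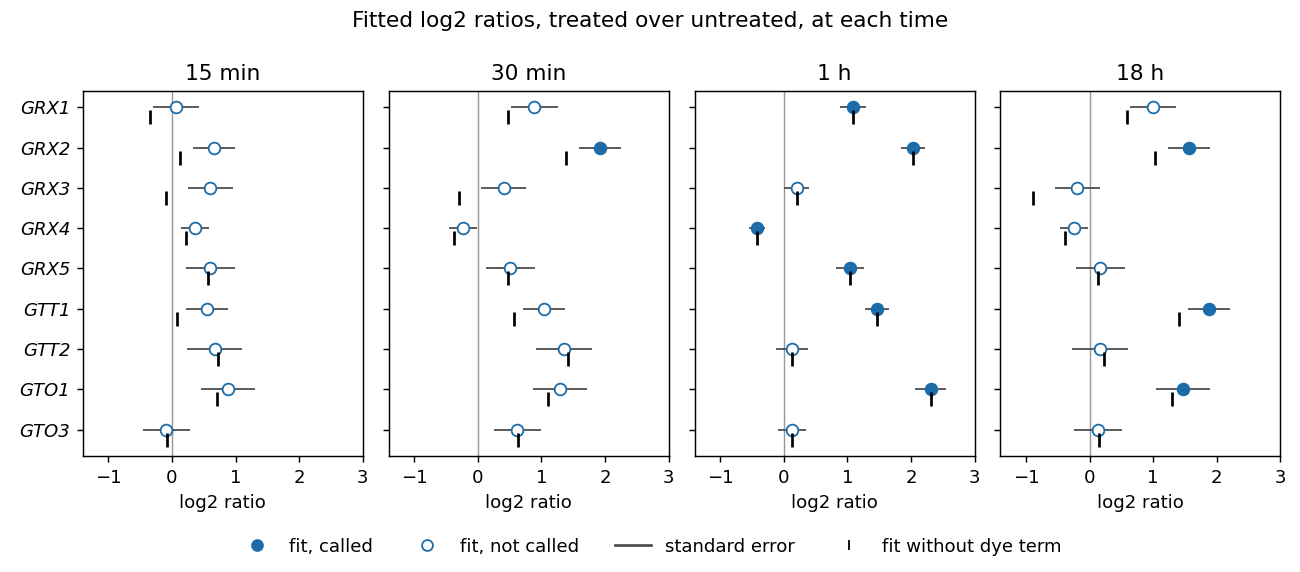
Fitted log2 ratios (x axis) of the 9 members (y axis) at 15 min, 30 min, 1 h and 18 h with limma standard errors; filled circles were called at an adjusted p under 0.05, open circles were not, and vertical ticks mark the fit without the dye term. GRX2 is called at 30 min (1.92), 1 h (2.03) and 18 h (1.56), and the ticks lie farthest from the circles for GRX3.

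In the order of fitted ratios at 1 h (GTO1, GRX2, GTT1, GRX1, GRX5, GRX3, GTT2, GTO3, GRX4) the array ranges of every member and the next overlapped. Related genes were therefore compared within arrays, where both had been measured on the same slide. At 1 h GRX2 stood above GRX1 on 6 of 6 arrays, by 0.94 ± 0.41 (SD, n = 6). GTT2 stood below GTT1 on 6 of 6 arrays, with a difference of -1.33 ± 0.65. GTO3 stood below GTO1 on 6 of 6, with -2.18 ± 0.68. Each of these gave p = 0.03125 in an exact two-sided sign-flip permutation test, the smallest that 6 arrays allow, and an adjusted p of 0.0417 over the 4 pairs compared. On these 6 arrays the centred ratios within each of these pairs thus differed at 1 h. The cause of the differences was not tested.

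GRX4 minus GRX3 did not pass, at -0.62 ± 0.79 (SD, n = 6, exact permutation p = 0.0938, adjusted p = 0.0938). The 3 arrays with treated RNA in Cy3 gave -1.26, -1.91 and -0.36, and those with treated RNA in Cy5 gave 0.16, -0.10 and -0.25, so the 2 kinds of array did not overlap for this pair. GTT2 minus GTT1 also differed in size between them, from -2.31 to -1.58 with Cy3 and from -1.01 to -0.54 with Cy5, but was below 0 in both. For GRX2 minus GRX1 the ranges overlapped (0.60 to 1.72 and 0.65 to 0.93), as they did for GTO3 minus GTO1 (-2.76 to -1.72 and -2.90 to -1.23).

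At the other times 3 arrays allow no p under 0.25, and the differences are given without a test. GRX2 minus GRX1 was 0.47 ± 1.57 (SD, n = 3) at 15 min, 0.91 ± 0.29 at 30 min and 0.44 ± 0.19 at 18 h, above 0 on 2, 3 and 3 arrays. GTO3 minus GTO1 was below 0 on every array, at -0.78 ± 0.15, -0.46 ± 0.39 and -1.14 ± 0.52. GTT2 minus GTT1 lay on the other side of 0 early on, at 0.65 ± 0.75 at 15 min and 0.84 ± 1.26 at 30 min, and was -1.18 ± 0.88 at 18 h. Its 30 min mean rested on replicate 1, with 2.29 there and 0.22 and 0.01 on the other arrays. GRX4 minus GRX3 was 0.31 ± 0.60, -0.08 ± 0.44 and 0.50 ± 0.49 in order of time.

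**Figure D3:**
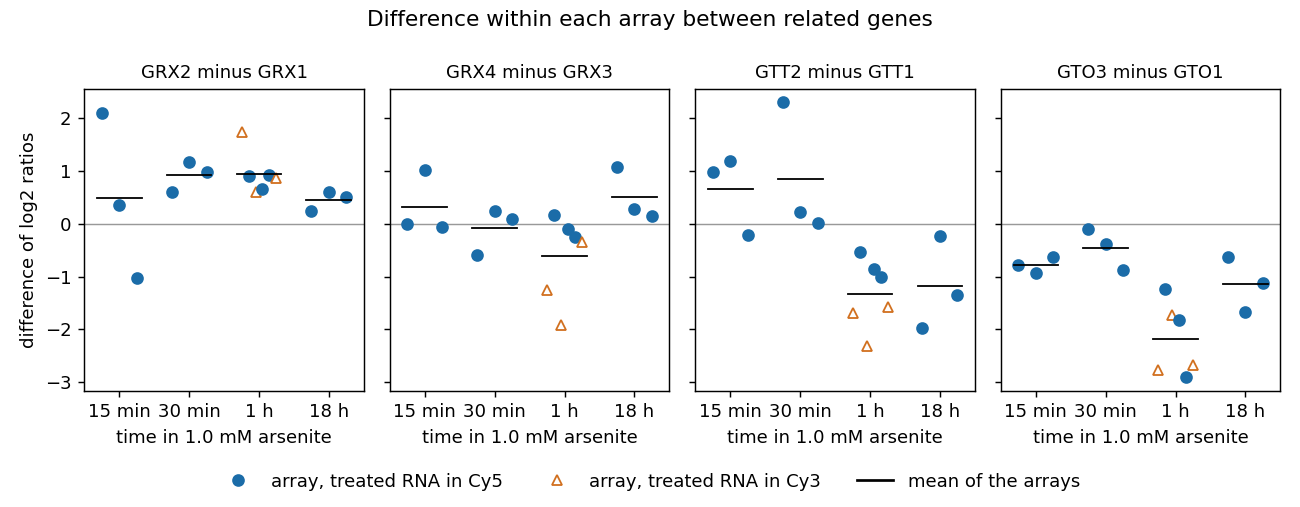
Differences of centred log2 ratios between related genes on the same array (y axis) by time in 1.0 mM arsenite (x axis); filled circles are arrays with treated RNA in Cy5, open triangles arrays with treated RNA in Cy3, bars the mean of the arrays. At 1 h all 6 arrays lie above 0 for GRX2 minus GRX1 and below 0 for GTT2 minus GTT1 and GTO3 minus GTO1, while GRX4 minus GRX3 crosses 0.

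Neighbouring times were compared within the same fit. No member was called in any of these differences. From 15 min to 30 min the fitted differences ran from -0.59 for GRX4 to 1.26 for GRX2, with a smallest limma adjusted p of 0.474, and 0% of all genes were called higher and 0% lower. From 30 min to 1 h they ran from -1.22 for GTT2 to 1.03 for GTO1 (smallest adjusted p = 0.875), and again 0% of all genes were called in either direction. From 1 h to 18 h they ran from -0.87 for GRX5 to 0.42 for GTT1 (smallest adjusted p = 0.405), against 1.05% of all genes called higher and 0.361% lower. Unadjusted p-values under 0.05 were reached by 2, 1 and 0 members and by 383, 286 and 752 genes in the 3 comparisons. The 95% intervals of these differences reached from -2.28 to 2.07, so that differences of this size were not resolved with these arrays.

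The wider glutathione system was read through 7 further lists, chosen with earlier results of these data known and described here at 1 h by counts of called genes. These counts stand beside the 17.1% of all genes called higher and 22.6% called lower at that time, and nothing particular to a list is read from them. The glutaredoxins outside the members, GRX6 and GRX7 of the secretory pathway and GRX8, gave 0 higher and 1 lower of 3 (median -0.09). GRX7 fell by 0.42 (-0.42 ± 0.16, limma adjusted p = 0.043), above 0 on no array, and that call was lost in 6 of the 15 fits that left out 1 array.

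Other proteins with a glutathione transferase fold, or listed as related to them, gave 1 higher and 3 lower of 5 and a median of -0.81. ECM4, the remaining omega-class transferase of yeast, rose by 0.73 ± 0.24 (limma adjusted p = 0.024), with arrays from 0.17 to 1.23. TEF4 and CAM1, which encode the transferase-like gamma subunit of a translation elongation factor, fell, with -2.47 ± 0.29 and -0.88 ± 0.20. CAM1 was at -0.18 (adjusted p = 0.240) with the trend in brightness removed, and its call was also lost with treated RNA in Cy5 alone (adjusted p = 0.067). GTT3, listed as related, was called lower as well, at -0.81 ± 0.17, and its value is the median of the list. TEF4 was lower at 30 min as well (-1.85 ± 0.51, adjusted p = 0.038), where its arrays stood from -2.78 to -0.55. The 30 min call of TEF4 was lost in 8 of 15 fits without 1 array.

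Genes that make, reduce, take up or break down glutathione gave 5 higher and 0 lower of 9, with a median of 0.81. GSH1, which encodes the rate-limiting enzyme of glutathione synthesis, stood from 1.49 through 2.18 to 2.90 on the 1 h arrays and was fitted at 2.21 ± 0.21 (limma adjusted p = 7.8e-07). GLR1, which encodes the reductase that returns oxidised glutathione to its reduced form, was fitted at 1.35 ± 0.19. The remaining 3 break glutathione down. DUG2 and DUG3, whose products form a cytosolic complex that cleaves glutathione, rose by 2.75 ± 0.26 and 1.75 ± 0.19. ECM38, the vacuolar transpeptidase, rose by 0.81 ± 0.19, and is named here because it completes the count, outside the rule for named genes. GSH2, which performs the last step of synthesis, was at 0.44 ± 0.18 and did not pass (adjusted p = 0.059). At 18 h GSH1 (1.75 ± 0.37) and DUG3 (1.63 ± 0.32, mean of the arrays 1.45) were called higher, while DUG2 was at 0.39 ± 0.45. DUG2 was already called at 30 min, with 1.80 ± 0.45 (adjusted p = 0.027).

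Of the 3 glutathione peroxidase genes, GPX2 rose at 1 h by 1.25 ± 0.16 (limma adjusted p = 1.4e-05). GPX1 and HYR1 stood at 0.82 ± 0.32 and 0.46 ± 0.18 and just missed (adjusted p = 0.051 and 0.052). GPX2 was also called at 30 min (0.96 ± 0.28, adjusted p = 0.046, mean of the arrays 0.58), a call kept in 6 of 25 alternatives. The median of the list was 0.82.

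Glyoxalases, which use glutathione to clear methylglyoxal, and transporters of glutathione and its conjugates gave 2 higher and 3 lower of 8 (median 0.09). GLO1, glyoxalase I, stood from 1.32 through 2.19 to 2.54 at 1 h and was fitted at 2.05 ± 0.20 (limma adjusted p = 1.1e-06). It was called higher at 30 min (1.30 ± 0.35, mean of the arrays 1.00) and at 18 h (1.37 ± 0.35, mean 1.06) too. YCF1, the vacuolar pump for glutathione conjugates, was lower on all 6 arrays, from -1.39 to -0.53, and was fitted at -1.03 ± 0.21 (adjusted p = 0.0010). BPT1, a related vacuolar pump, fell to -0.56 ± 0.21 (adjusted p = 0.041), and that call was lost in 8 of 15 fits without 1 array. GEX1 and GEX2, which encode glutathione exchangers and are near-identical copies, gave 0.67 ± 0.24 and -2.89 ± 0.47, and both are uncertain as to the copy.

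Partners of the monothiol glutaredoxins in iron sensing and iron-sulfur assembly gave 4 higher and 3 lower of 14 and a median of 0.18. Among those called higher were IBA57 (1.57 ± 0.21) and ISA2 (0.92 ± 0.22), which act late in mitochondrial cluster assembly, and YFH1 (1.30 ± 0.18), the yeast frataxin. ISU1, a scaffold on which clusters are built, fell to -1.17 ± 0.23 (limma adjusted p = 8.0e-04). ISU2, in the same list, stood at 0.44 ± 0.29 and did not pass (adjusted p = 0.255). In the cytosolic and nuclear branch, FRA1, a partner of GRX3 and GRX4 in iron signalling, fell to -2.01 ± 0.38 (adjusted p = 5.1e-04). The iron regulators differed in sign, AFT1 being lower (-0.60 ± 0.17) and AFT2 higher (0.53 ± 0.14). Both calls were lost with treated RNA in Cy5 alone (limma adjusted p = 0.157 and 0.070). AFT2 was also called at 18 h (0.96 ± 0.24).

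The list of transcription factors, YAP1, SKN7, MSN2, MSN4 and MET4, gave 1 higher and 0 lower of 5 at 1 h, and its median was -0.18. YAP1, the regulator of the oxidative stress response, rose by 0.99 ± 0.17 (limma adjusted p = 2.3e-04), with all 6 arrays between 0.65 and 1.40. It was called at 18 h too (1.20 ± 0.29), as was MSN4 (1.10 ± 0.30), a general stress factor that had stood at -0.40 ± 0.17 at 1 h.

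Without centring, the 1 h calls of GRX7, ECM4, GLR1, ECM38, GPX2, GEX1, YFH1, ISA2, IBA57, AFT2 and YAP1 were lost, YAP1 for example standing at 0.44 (limma adjusted p = 0.460). With treated RNA in Cy5 alone, the 1 h calls of GRX7, ECM4, CAM1, ECM38, BPT1, GEX1, AFT1 and AFT2 were lost. Their limma adjusted p ran from 0.067 for CAM1 to 0.214 for BPT1. Some calls of these lists also rested on few arrays. At 1 h the call of ECM4 was lost without replicate 4, 5 or 6, that of AFT1 without replicate 6, and that of GEX1 without replicate 3, 4, 5 or 6. At 18 h the call of GSH1 was lost without 18 h replicate 2 and that of YAP1 without 18 h replicate 2 or 3. In the 15 fits that left out 1 array, the 18 h calls of AFT2, GLO1 and MSN4 were kept in 11, 10 and 10, and the 30 min calls of DUG2 and GLO1 in 11 and 7. The 1 h calls of GSH1, DUG2, DUG3, GLO1, YCF1, TEF4, GTT3, ISU1 and FRA1 were kept in all 26 alternatives.

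**Figure D4:**
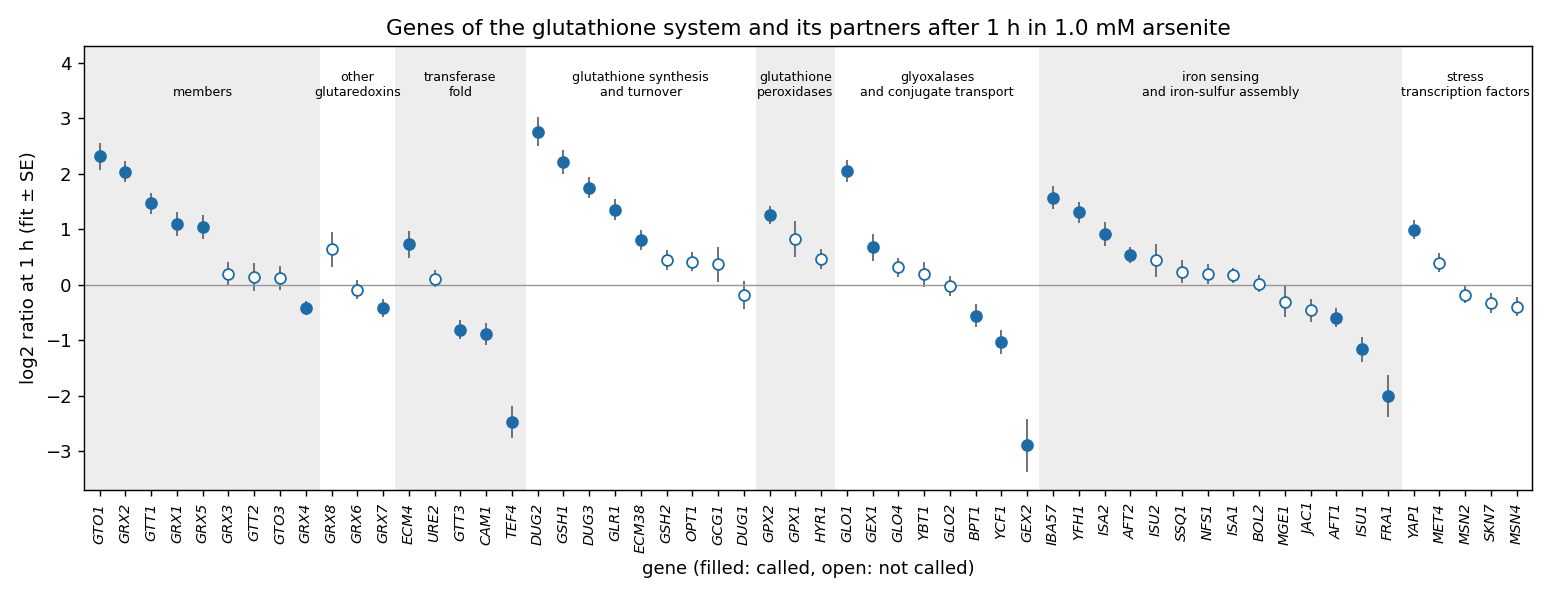
Fitted log2 ratios at 1 h with limma standard errors (y axis) for the 9 members and the genes of the 7 further lists (x axis), ordered within each list from the highest down; filled circles were called, open circles were not. GTO1 (2.31) and GRX2 (2.03) stand with DUG2 (2.75), GSH1 (2.21) and GLO1 (2.05) near the top, and GRX4 (-0.42) is the only member called lower.

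Across the 15 arrays the members did not follow one course. The closest members were GRX1 and GTT1, with a Pearson r of 0.86 between their centred ratios, followed by GRX2 and GTT1 with 0.71. GRX4 was correlated below 0 with GTO1 (-0.52), GRX1 (-0.48) and GRX2 (-0.45). GTT2 had no r above 0.26 with any other member. These are descriptions over 15 arrays that share time points, dye orientation and spot brightness.

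The 3 genes closest to each member over the same 15 arrays were then read out. GRX2 was closest to TSA2 (r = 0.86), which encodes a peroxiredoxin, TFS1 and CMK1. GRX5 was closest to HTC1 (0.96) and NFU1 (0.89), the latter encoding a mitochondrial iron-sulfur protein, then YPR1. GRX1 was closest to MRX18 (0.93), ATG8 and POP1. GRX3 was closest to YAP1801 (0.93), PTA1 and YBR090C. GTT1 had YGR067C (0.93), YNL208W and NQM1 nearest to it. GTO1 had UGX2 (0.91), PAM17 and YLL066C, and GTO3 had YCH1 (0.93), TEM1 and CDC8. The lowest likeness was that of GRX4, with VMA3 (0.79), YGK1 and HXT14, and of GTT2, with YCF1 (0.71), KNS1 and HEL2. YCF1 was thus the gene nearest to GTT2 in pattern, although it was called lower at 1 h (-1.03) and GTT2 stood at 0.14. This r includes the GTT2 value of 3.01 on 30 min replicate 1, an array of unknown making, and was not computed without that array.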

How the data were processed

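Values came from 15 two-colour arrays. The authors deposited 1 log2 ratio per spot and array. For protocols the labels only cite a publication, and the scanning and normalisation steps are not stated in them. On 10 arrays the values were log2 ratios of whole numbers up to 65535 (relative tolerance 5e-14). On the 3 arrays that carried treated RNA in Cy3, whose values had fewer digits, 30, 5 and 23 zeros carried a minus sign, which with the order of conditions in the titles makes treated over untreated the likely direction. The log2 scale of 15 min replicate 1 and 30 min replicate 1 was taken from the other arrays.

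Each array was centred on its median gene, and spots of a gene (platform annotation, 11138 named spots, names checked against assembly R64) were averaged to 5539 genes. limma 3.58.1 (lmFit, eBayes, R 4.3.3) was fitted to all genes and arrays with a mean per time and a gene-specific dye effect (10 residual and 5.41 prior degrees of freedom). The 4 times and 3 differences between neighbouring times were tested two-sided, with Benjamini-Hochberg adjustment over 5539 genes. The code was checked on simulated data. Pairs were tested by exact sign flips. Replicate numbers were not used to pair the arrays. Deviations of same-numbered arrays from the means of their times correlated from -0.55 to 0.64. Arrays of unlike number were not compared, so these values do not settle whether same-numbered arrays belong together.

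Named were all members, from each list the called genes at 1 h (at most 4 each way, by size) with any called at another time only, and the 3 genes most correlated with each member. Members and lists were chosen with earlier results of these data known. Of 26 alternatives, 15 left out 1 array, and 1, which left out the 2 arrays of unknown making, was chosen after seeing the data. Where an alternative used brightness, this was the index from whole numbers in lowest terms on 10 arrays, without scanner signals.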

Additional observations from a re-analysis of the deposited data

Results flagged for a closer look

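GRX4 stood above 0 on all 3 arrays at 15 min and below 0 on every array at 30 min, 1 h and 18 h. This was found by looking through every member and every pair of times. The share of all genes with such a split was not computed, so how common it is remains unknown. The fitted difference from 15 min to 30 min was -0.59 and did not pass the test (limma adjusted p = 0.675). The differences of -0.63 between 15 min and 1 h and of -0.61 between 15 min and 18 h, taken from the means of the arrays, were not tested.

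A difference between 1 h and 18 h itself passed the test for DUG2 and MSN4, which are not members. DUG2 fell by 2.36 (-2.36 ± 0.51, limma adjusted p = 0.031), a call kept in 17 of 25 alternatives. For MSN4 the difference was a rise (1.50 ± 0.35, limma adjusted p = 0.043), a call kept in 11 of 25 alternatives. For no member did the 6 arrays at 1 h pass Dixon's 95% limit for an array far from the others. GTO1 came just under it, its lowest array of 1.43 (replicate 2) lying apart from the next by 0.620 of the whole range.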

How the results depend on the processing

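The calls of GRX2 and GTO1 at 1 h and of GTT1 at 18 h were kept in all 26 alternatives (largest adjusted p 0.0022, 0.0013 and 0.0382). Members called higher at 30 min (1 as reported) were 3 without the dye term, 5 with the brightness trend removed, 2 with the dimmest 25% of genes left out, with treated RNA in Cy5 alone or without the 2 arrays of unknown making, 0 without centring and 0 with the arrays of the time point alone, and 1 to 2 with 1 array left out. Members called higher at 1 h (5) were 2 without centring, where GRX1 (0.54), GRX5 (0.49) and GTT1 (0.91) did not pass, and 5 whichever array was left out. Members called lower at 1 h (1) were 0 without centring, 0 with treated RNA in Cy5 alone, 0 with the dimmest 25% of genes left out, which removes GRX4 from the test, and 0 to 1 with 1 array left out (0 without 1 h replicate 3 or 5). With treated RNA in Cy5 alone, 1 member (GRX3, -0.89, adjusted p = 0.043) was called lower at 18 h. Members called higher at 18 h (3) were 1 to 3 with 1 array left out, 1 being the count without 18 h replicate 3. Without centring, the median gene in the fit stood at 0.849, 0.246, -0.529 and 1.023 in order of time, and AFT2 at 1 h turned to -0.0171. The cause of these changes was not tested. With the replicate number as a random block (correlation -0.0533) the members called higher were 0, 1, 5 and 3 in order of time, as without the block. Pair differences at 1 h kept their sign without any 1 array, from 0.79 to 1.01 for GRX2 minus GRX1, -0.77 to -0.36 for GRX4 minus GRX3, -1.49 to -1.13 for GTT2 minus GTT1 and -2.37 to -2.04 for GTO3 minus GTO1, with 5 arrays too few for the test to pass. Counts over all genes moved by over 1.5 times in several settings. Without centring, 160 genes were called higher at 1 h (946 as reported) and 1014 higher from 1 h to 18 h (58). At 30 min, where 181 and 248 were called higher and lower, the counts were 276 and 702 without the dye term, 283 and 619 without the 2 arrays of unknown making, 15 and 0 with the arrays of the time point alone, and 33 and 5 without replicate 3. Of the values of single genes under the alternatives, 2346 kept their side of the threshold, 172 kept their direction but no longer passed, and 14 newly passed. Genes of the further lists were counted only where the reported fit had called them, so only members could newly pass. The numbers lost and gained are therefore not to be compared. Among called values 1 changed sign. Sign changes of values called in neither fit were counted within the 2346. An example is GRX3 at 15 min, at 0.60 with the dye term and -0.09 without it.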

Other observations

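Values of the genes next to the members in the R64 gene order were read out after the members' values had been seen. Of 18 neighbours 16 were measured, and at 1 h 6 were called higher and 2 lower (limma), against 17.1% and 22.6% of all genes. GTO1, the member with the highest ratio at 1 h, lies between YGR153W (0.09 ± 0.25) and CYS4 (0.13 ± 0.28), neither of which was called. GTO3, which was not called, lies between GAD1 (1.25 ± 0.17) and HOR7 (1.68 ± 0.25), both called higher. GRX2 lies between EMI1, called higher at 0.65 ± 0.17, and YDR514C, called lower at -1.65 ± 0.19. GTT1 lies between HYR1 (0.46 ± 0.18, not called) and YPS6 (0.95 ± 0.19, called higher). GTT2, at 0.14, lies between MMP1, which encodes a transporter of S-methylmethionine and was called higher at 1.56 ± 0.27, and HSU1 (0.41 ± 0.21), which was not called. Of the remaining neighbours measured, TMT1 beside GRX4 was called lower (-1.15 ± 0.29) and LSB5 beside GRX1 higher (0.48 ± 0.12), while GFD2, MSH6, RAD24 and PDR12 were not called.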
